A study of Mus musculus with 4 samples.

Results

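Apoe, Clu, Apod, Ptgds, Trf and Cst3 encode secreted carriers and a secreted inhibitor that glial cells release into the fluid around neurons. They were taken by name, and all 6 were found among the 20136 genes counted in 4 Drop-seq libraries of the mouse BNST. This bed nucleus of the stria terminalis lies in the forebrain and links the amygdala with the hypothalamus. Every library came from male wildtype C57BL/6J mice, 6 pooled per library and 24 in all, with no treatment named. The labels used here give no age, and single mice cannot be told apart within a pool. Drop-seq encloses single cells with barcoded beads and counts each captured transcript once, by a random tag called a unique molecular identifier (UMI). The 6 genes were described across astrocytes, both forms of mature oligodendrocyte, vascular cells and neurons.

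Apolipoproteins coat lipid particles so that cells can exchange cholesterol and other lipids through water. Apoe is the main lipid carrier made inside the brain, largely by astrocytes, and Clu (clusterin) is a second apolipoprotein that also acts as a chaperone outside cells. Apod and Ptgds belong to the lipocalins, barrel-shaped proteins that hold small fatty molecules. Ptgds is also the enzyme that makes prostaglandin D. Trf (transferrin) carries iron and is made by oligodendrocytes in the brain, and Cst3 (cystatin C) inhibits cysteine proteases of the cathepsin family.

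On GRCm38, with positions from GENCODE vM21, Apoe lies on chromosome 7 at chr7:19696109-19699188, Apod on chromosome 16 at chr16:31296192-31314808 and Trf on chromosome 9 at chr9:103204001-103230444. Ptgds at chr2:25466709-25470046 and Cst3 at chr2:148871722-148875692 share chromosome 2. These 5 genes are on the minus strand, and Clu at chr14:65968483-65981547 is on the plus strand. All are protein-coding, and none overlaps another gene named in the count tables.

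The sequences before the transcription starts of Apoe, Ptgds and Apod are shown because these 3 genes had the largest differences between the oligodendrocyte forms that passed the test. They are from RefSeq (GRCm38.p6), minus strand, written 5′ to 3′, without bases that GENCODE places in an exon of the gene. Apoe, for which RefSeq lists 3 starts, and Apod are shown for the 250 bases up to the start, at chr7:19699189-19699438 and chr16:31314809-31315058. The 157 bases of Ptgds, at chr2:25469843-25469999, end 93 bases before the RefSeq start, and GENCODE has a further first exon upstream of them. Capitals mark CAGCTG, a core read by many basic helix-loop-helix factors, and ACAAAG, a core read by SOX factors, each searched on both strands (CTTTGT is the reverse of ACAAAG). These letters were chosen with the sequences at hand.
Apoe: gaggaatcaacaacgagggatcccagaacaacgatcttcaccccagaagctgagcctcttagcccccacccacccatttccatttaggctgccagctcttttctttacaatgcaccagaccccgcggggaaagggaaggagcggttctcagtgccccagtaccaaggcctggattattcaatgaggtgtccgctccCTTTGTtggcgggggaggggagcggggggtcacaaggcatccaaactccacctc
Ptgds: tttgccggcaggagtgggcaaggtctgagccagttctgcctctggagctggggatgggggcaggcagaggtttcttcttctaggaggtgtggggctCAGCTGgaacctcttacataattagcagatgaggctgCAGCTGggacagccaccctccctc
Apod: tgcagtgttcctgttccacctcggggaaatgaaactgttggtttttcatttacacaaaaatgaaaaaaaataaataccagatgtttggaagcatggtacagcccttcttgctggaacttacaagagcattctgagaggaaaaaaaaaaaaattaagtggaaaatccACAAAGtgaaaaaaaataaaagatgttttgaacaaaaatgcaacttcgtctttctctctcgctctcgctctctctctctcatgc
Ptgds held CAGCTG at 2 places in its window, and 7.86% of 32851 promoters in the RefSeq table held it in the same window. Apoe and Apod each held ACAAAG once, as did 16.5% of all promoters in 250 bases. Neither TATAAA nor TTGGCA, letters of the TATA box and of the NFI half-site, was found in the 3 windows. A match is only a string of letters, and no binding was measured.

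The tables held 10200 barcodes and 2640399 to 5652342 UMIs per library, of which 4181 barcodes were kept as cells, and no barcode of a kept cell was shared between libraries. Cells were clustered without the 6 genes and named from marker lists, which gave 405 astrocytes, 659 oligodendrocytes of a form marked by Opalin and Il33, 250 of a form marked by Klk6 and Anln, 91 vascular cells and 2427 neurons. Opalin itself stood at 1795 CPM (counts per 1e6 UMIs of the class) in the first form and at 309 CPM in the second, and Il33 at 816 and 213 CPM. Of the other 3 markers of that list Car2, at 4207 and 5729 CPM, and Grm3, at 134 and 191 CPM, went the other way, and the list summed to 7150 and 6568 CPM. Klk6 was at 0 in the first form, and the list of the second form summed to 449 and 3205 CPM. Both forms held the general oligodendrocyte markers at like levels, with summed means of 143790 and 153170 CPM. Median depth was 812 UMIs in astrocytes, 1310 and 1528 in the 2 forms, 949 in vascular cells and 3329 in neurons. The vascular class joined endothelial and mural cells in 1 cluster and held 15 to 35 cells per library. Its summed neuron markers stood at 6355 CPM, against 23171 CPM in neurons and 464 to 952 CPM in the glial classes, and its summed oligodendrocyte markers at 1834 CPM. The part these other markers play in the vascular values was not tested.

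Levels of each gene were summed per class and library, so n is 4 libraries throughout and the SD is between libraries. The 5 classes were compared in edgeR's quasi-likelihood test with library as a block, over 4414 genes, and a gene was called at a Benjamini-Hochberg adjusted p under 0.05. Log2 differences are given with an approximate standard error (SE), the difference divided by the square root of the test's F. It does not measure counting error where a class has few UMIs, as for Clu in the Klk6 and Anln form or Trf and Apod in astrocytes.

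Apoe was the gene of astrocytes. It stood at 16214, 19684, 13437 and 20078 CPM in libraries 1 to 4, a mean of 17353 ± 3135 CPM (SD, n = 4). The Opalin and Il33 form held 1149, 1179, 1870 and 2041 CPM, and the Klk6 and Anln form 505, 391, 400 and 843 CPM. Libraries of the 3 classes did not overlap, and the 2 forms followed astrocytes in the same order in each library. Astrocytes exceeded the mean of the 2 forms by 4.22 (SE 0.13) on the log2 scale, with an edgeR adjusted p of 1.29e-221. Vascular cells spread widely, at 1164, 596, 286 and 2282 CPM, and overlapped both forms. Oligodendrocyte precursors, outside the tests, held 2717 ± 576 CPM (SD, n = 4), above every library of the mature forms, and committed precursors 587 ± 436 CPM (SD, n = 4).

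Clu and Cst3 shared the astrocyte peak but not the order below it. Clu, the extracellular chaperone, stood at 3284, 3756, 3458 and 4889 CPM in astrocytes, 309 to 403 CPM in neurons, 57.2 to 355 CPM in vascular cells, 8.13 to 43.4 CPM in the Opalin and Il33 form and 0 to 12.97 CPM in the Klk6 and Anln form. The ranges of neurons and vascular cells overlapped. The Clu value of the last form rested on 3 UMIs in 250 cells. Cst3, the protease inhibitor, stood at 25771, 19305, 14062 and 18765 CPM in astrocytes, 811 to 2844 CPM in vascular cells, 534 to 854 CPM in neurons and 191 to 273 and 183 to 311 CPM in the 2 oligodendrocyte forms, which overlapped. Vascular cells and neurons also overlapped for Cst3, through library 4 alone of the vascular class. Astrocytes exceeded mature oligodendrocytes by 7.96 (SE 0.20) for Clu and by 6.19 (SE 0.15) for Cst3, with edgeR adjusted p-values too small for the software to hold.

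Apod, Ptgds and Trf were genes of mature oligodendrocytes. The lipocalin Apod stood at 3007, 3227, 3427 and 2739 CPM in the Opalin and Il33 form and at 9593, 7128, 7683 and 6406 CPM in the Klk6 and Anln form. In astrocytes it had 6 UMIs in all, with libraries 1 and 2 at 0. Ptgds, the prostaglandin synthase and lipocalin, had the reverse order, at 15609.9, 10099, 10590.1 and 9642 CPM in the Opalin and Il33 form and at 2719, 1345, 1512 and 1024 CPM in the Klk6 and Anln form. The iron carrier Trf stood at 1588, 1666, 2729 and 2734 CPM in the first form and at 3503, 3375, 4612 and 5395 CPM in the second. Forms did not overlap for any of the 3 genes. Against mature oligodendrocytes, astrocytes were lower by -8.31 (SE 0.29) for Apod, -6.07 (SE 0.25) for Ptgds and -7.86 (SE 0.30) for Trf on the log2 scale, the weakest edgeR adjusted p being 3.20e-132. All 6 genes were thus called between astrocytes and mature oligodendrocytes, 3 higher and 3 lower in astrocytes, where 53.2% of all genes tested were called, 27.1% higher and 26.1% lower in astrocytes.

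In precursor cells the 3 genes stood below every library of the mature forms. Apod had 0 of 185091 UMIs in 165 oligodendrocyte precursors, which allows a level of up to 16.2 CPM (3 counts, counting error only). Ptgds stood at 59.0 ± 14.6 CPM (SD, n = 4) and Trf had 1 UMI in those cells. In 37 committed precursors Apod stood at 77.5 ± 99.7, Ptgds at 362 ± 445 and Trf at 55.3 ± 72.1 CPM (SD, n = 4), with 1 or more libraries at 0 for each. Their highest library for Ptgds was at 909 CPM, near the lowest of the Klk6 and Anln form at 1024 CPM. Neither precursor class entered the tests.

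**Figure D1:**
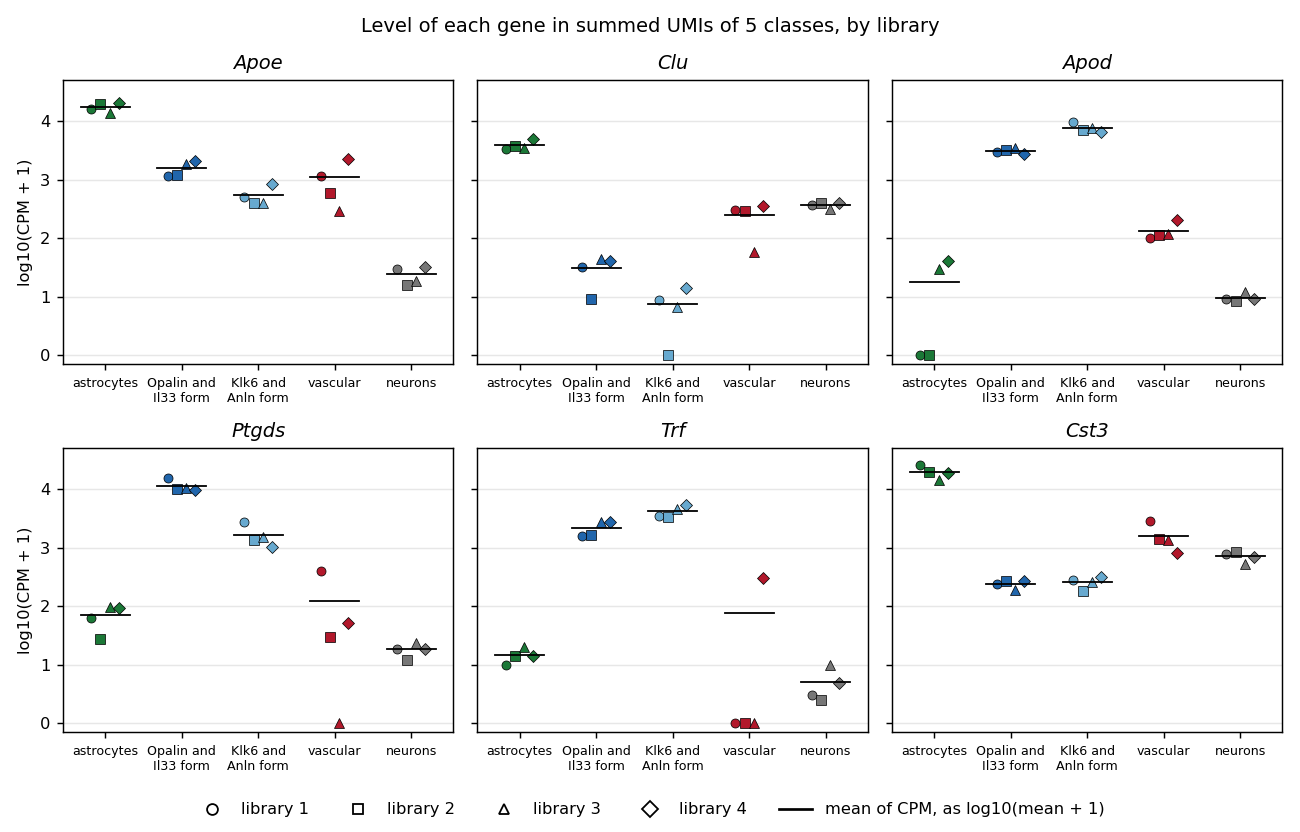
Level of each gene per library (marker shapes) in 5 classes, on an axis of log10(CPM + 1), with the mean of the 4 CPM values as a line. Apoe, Clu and Cst3 sit highest in astrocytes, Apod and Trf in the Klk6 and Anln form and Ptgds in the Opalin and Il33 form, and the vascular points of Ptgds and Trf reach from 0 to 399 and to 304 CPM.

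Between the oligodendrocyte forms the carriers went in opposite directions. The Opalin and Il33 form had more Ptgds, by 2.91 (SE 0.16) on the log2 scale with an edgeR adjusted p of 2.79e-74, and more Apoe, by 1.66 (SE 0.18) with an edgeR adjusted p of 5.49e-17. The Klk6 and Anln form had more Apod and more Trf, the difference of the Opalin form from it being -1.23 (SE 0.14) for Apod, with an edgeR adjusted p of 4.92e-17, and -0.90 (SE 0.13) for Trf, with an edgeR adjusted p of 7.48e-10. Thus 4 of the 6 genes were called, 2 higher and 2 lower in the Opalin form, where 6.07% of all genes tested were called, 3.56% higher and 2.51% lower in that form. Each of the 4 kept its direction in all 4 libraries. Clu differed by 2.21 (SE 0.80), with an edgeR adjusted p of 0.0760 and lower values in the Klk6 and Anln form in 4 of 4 libraries. Cst3 differed by -0.07 (SE 0.25), with an edgeR adjusted p of 0.960. The Trf call was lost in DESeq2, at -0.99 with an adjusted p of 0.0592. Leaving out each library in turn kept all 4 calls.

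**Figure D2:**
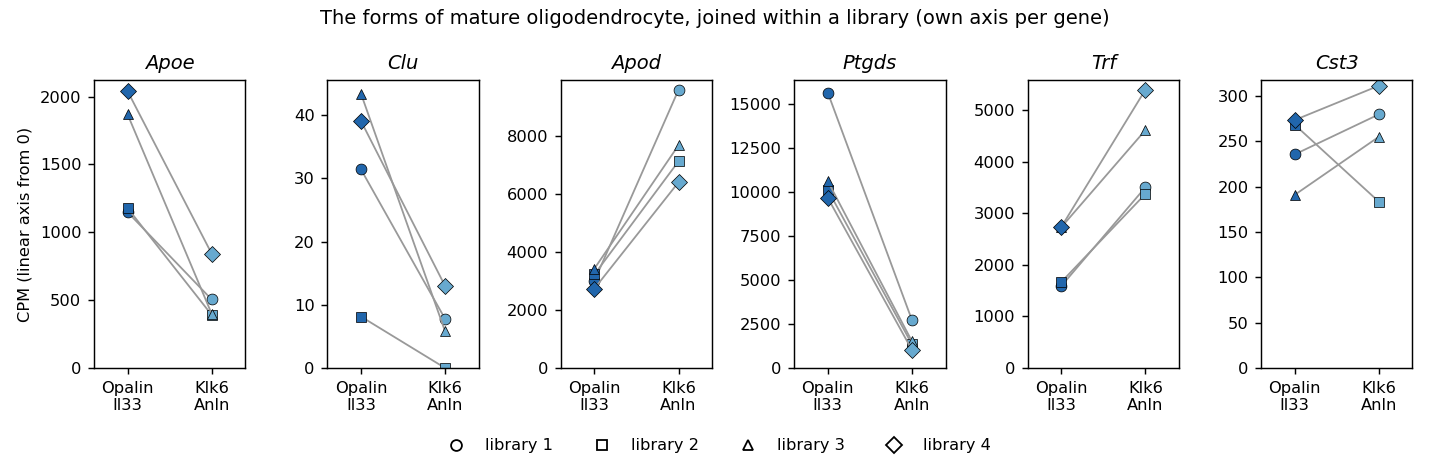
CPM of each gene in the Opalin and Il33 form and the Klk6 and Anln form, joined within a library, on linear axes from 0 that differ between genes. All 4 lines fall for Ptgds, Apoe and Clu, all 4 rise for Apod and Trf, and the lines of Cst3 go both ways.

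The Opalin and Il33 form was made of a large and a small cluster, and its carriers varied between them. The larger cluster, of 603 cells, held Apoe at 1875 ± 480.0, Apod at 3611 ± 319 and Trf at 2489 ± 606 CPM (SD, n = 4). In the smaller one, of 56 cells and led by myelin genes such as Opalin, Tspan2 and Mag, Apoe stood at 313 ± 142, Apod at 1253 ± 176 and Trf at 932 ± 292 CPM (SD, n = 4). Ranges did not overlap between the clusters for these 3 genes. Ptgds stood at 12748 ± 3563 and 7977 ± 3189 CPM (SD, n = 4), ranges that overlapped. Mean Apoe of the smaller cluster lay below that of the Klk6 and Anln form, at 535 ± 212 CPM (SD, n = 4), with overlapping ranges. The higher Apoe of the Opalin and Il33 form was thus that of its larger cluster. Median depth was 1257 UMIs in the larger cluster and 3555.5 in the smaller one, and the part of depth in these differences was not tested. The comparison of clusters was chosen after their values were seen.

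Within single cells the balance of the 2 lipocalins turned over between the forms. Each cell was thinned once to 500 UMIs, and the UMIs of the 2 genes were set against each other, each UMI being 1 captured transcript whatever its length. Ptgds exceeded Apod in 77.3% ± 5.51 of cells of the Opalin and Il33 form and in 8.62% ± 3.30 of cells of the Klk6 and Anln form (SD, n = 4). Apod exceeded Ptgds in 15.7% ± 5.32 and 85.5% ± 2.29 of cells (SD, n = 4). Libraries did not overlap, the lowest share with more Ptgds being 74.3% in the first form and the highest 11.1% in the second. Cells still differed within a form. The variance of Ptgds over its mean was 4.05 ± 0.460 in the Opalin and Il33 form and 3.74 ± 0.993 in the Klk6 and Anln form (SD, n = 4). In the first form it was 1.21 to 1.55 for Apoe, Apod and Trf. Where cells differ this ratio rises with the mean, so it does not rank genes of unlike level. Mean UMIs among 500 there were 6.26 for Ptgds, 0.846 for Apoe, 1.74 for Apod and 1.17 for Trf. Ptgds was at 0 in 9.43% of cells of the Opalin and Il33 form, where a Poisson count of the same mean gives 0.329%, and in 70.2% of the Klk6 and Anln form, where it gives 44.2%.

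**Figure D3:**
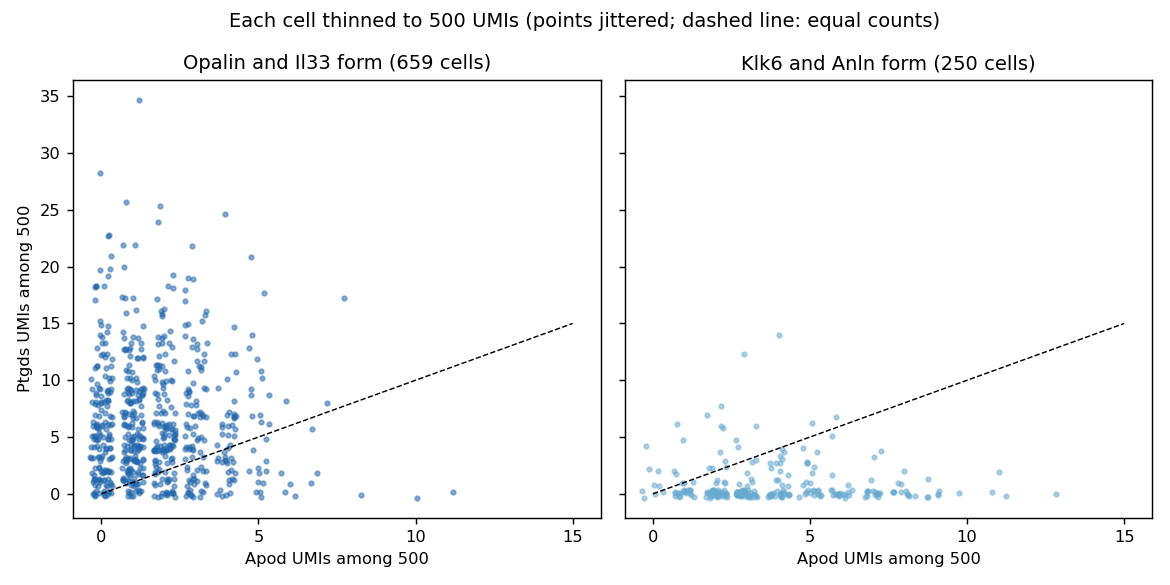
Ptgds UMIs (y axis) against Apod UMIs (x axis) in each mature oligodendrocyte after thinning to 500 UMIs, with points jittered and a dashed line at equal counts. Cells of the Opalin and Il33 form lie mostly above the line, in 77.3% of cells, and those of the Klk6 and Anln form mostly below it, in 85.5% of cells.

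Apoe went with Ptgds in the cells of both forms. In the Opalin and Il33 form, 50.4% of cells with a Ptgds UMI had an Apoe UMI, against 21.7% of cells without one, a difference of 28.7 ± 10.1 percentage points (SD, n = 4). In the Klk6 and Anln form the shares were 35.5% and 8.30%, a difference of 27.2 ± 6.81 points (SD, n = 4). The direction held in 4 of 4 libraries in each form. In the Klk6 and Anln form, cells with a Ptgds UMI numbered as few as 12 in a library. In the Opalin and Il33 form, cells without a Ptgds UMI numbered as few as 11 in a library. The link was not limited to Ptgds there. Apoe was also found more often with Trf, by 10.02 ± 5.67 points, and with Cst3, by 12.37 ± 6.97 points (SD, n = 4). Both held in 4 of 4 libraries. With Apod the difference was 0.397 points, higher in 2 of 4 libraries. This form pools a larger and a smaller cluster that differed in Apoe, and their part in these pairs was not tested. The Klk6 and Anln form still held Opalin at 309 CPM and Il33 at 213 CPM, and a mix of cells there was not tested either. Apod did not go with Ptgds in the Opalin and Il33 form, at 75.4% of cells with and 75.4% without Ptgds, and the library differences ran from -24.7 to 18.9 points. These pairs are a description with no test, and cells of 1 library are not replicates.

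The chance that a cell shows a gene at all was compared at an even depth of 500 UMIs. In astrocytes a UMI was found in 99.8% ± 0.233 of cells for Apoe, 98.9% ± 1.75 for Cst3 and 79.0% ± 4.91 for Clu (SD, n = 4). Neurons gave 1.25% for Apoe, 28.1% for Cst3 and 15.2% for Clu at the same depth. In the Opalin and Il33 form the share was 89.9% for Ptgds, 74.0% for Apod, 65.9% for Trf and 47.9% for Apoe. The Klk6 and Anln form reached 96.2% for Apod, 85.2% for Trf, 29.9% for Ptgds and 18.5% for Apoe. Neurons gave 1.43% for Ptgds, 0.488% for Apod and 0.357% for Trf. Each of these class shares exceeded that of neurons in 4 of 4 libraries, with an exact two-sided sign-flip permutation p of 0.13, the smallest that 4 libraries allow. In astrocytes, Ptgds at 3.57% and Trf at 0.726% exceeded neurons in 4 of 4 libraries, and Apod at 0.847% in 2 of 4. Trf rested on 5 UMIs there. At 1000 UMIs Ptgds exceeded neurons in 3 of 4 libraries and Trf in 2 of 4, and without thinning each did so in 2 of 4. At 500 UMIs the shares of Clu and Cst3 in both oligodendrocyte forms lay below those of neurons, at 0.214% to 1.44% and 11.1% to 11.3%. Before thinning, the shares were 90.5% for Clu in astrocytes, 94.8% for Ptgds in the Opalin and Il33 form and 99.2% for Trf in the Klk6 and Anln form.

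**Figure D4:**
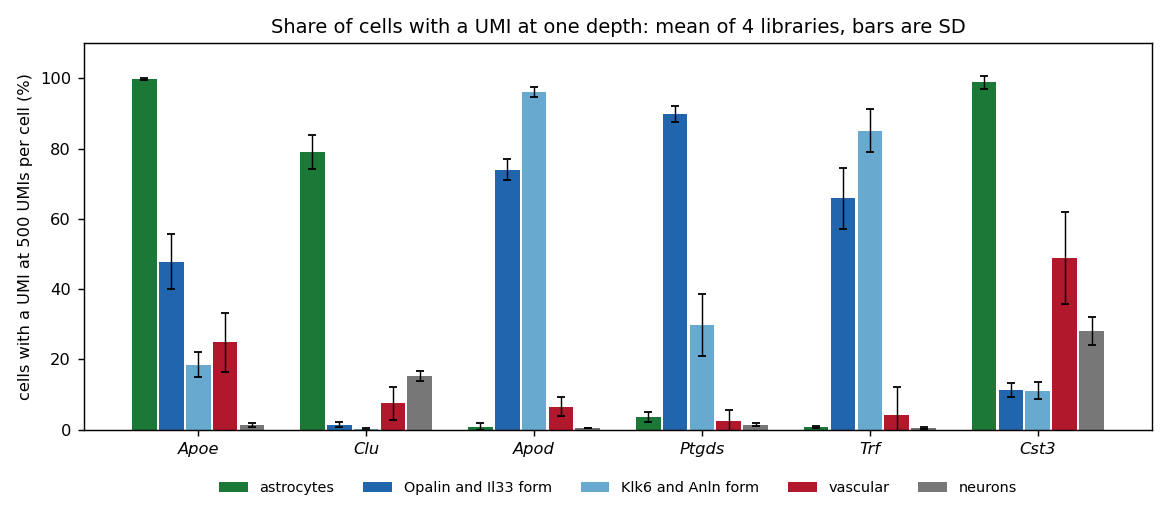
Percentage of cells with a UMI of each gene at 500 UMIs per cell, as bars from 0 for 5 classes with the SD over 4 libraries. Apoe and Cst3 reach nearly every astrocyte, at 99.8% and 98.9%, while neurons stay at 1.43% or less for Apoe, Apod, Ptgds and Trf and reach 15.2% for Clu and 28.1% for Cst3.

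Vascular cells held less of every gene than the class where that gene peaked. Against astrocytes, Apoe was lower by -4.41 (SE 0.19), Clu by -4.16 (SE 0.22) and Cst3 by -3.86 (SE 0.18) on the log2 scale, the weakest edgeR adjusted p being 2.82e-75. Apod was higher than in astrocytes by 2.54 (SE 0.78), with an edgeR adjusted p of 0.00471, on 16 UMIs in 91 vascular cells and 6 in astrocytes. So 4 of the 6 genes were called against astrocytes, where 35.6% of all genes were. The Apod call was lost without library 1, at 2.11 with an edgeR adjusted p of 0.0528, and the difference turned to -0.23 when doublets were kept. Against mature oligodendrocytes, vascular cells had less Apod (-5.77, SE 0.27), Ptgds (-5.06, SE 0.26) and Trf (-6.35, SE 0.32) and more Clu (3.80, SE 0.49) and Cst3 (2.33, SE 0.20). These 5 of 6 genes were called, where 45% of all genes were, and the weakest edgeR adjusted p was 1.02e-13. Apoe differed by -0.19 (SE 0.21), with an edgeR adjusted p of 0.469, and its direction turned under several other settings, to 1.30 with classes drawn from marker UMIs and to 0.41 with no scaling beyond the total.

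Most vascular signal of Ptgds and Trf came from few cells. Of 26 Ptgds UMIs, 21 were in 1 cell of library 1 with 6618 UMIs, which held 102 UMIs of oligodendrocyte markers beside 15 of mural and 9 of endothelial markers. Ptgds was at 399 CPM in that library and at 0 to 50.7 CPM in the others. Trf had 6 UMIs, all in library 4. Apoe was spread over 39 of 91 vascular cells, and 35 of its 141 UMIs were in 1 cell of library 4 with both endothelial and mural markers. Cells with more endothelial than mural UMIs, 59 in number, held Apoe at 1239 ± 1044 and Cst3 at 1355 ± 435 CPM (SD, n = 4), and 31 cells with more mural UMIs held them at 407 ± 480.3 and 1995 ± 1969 CPM (SD, n = 4), so that the ranges overlapped for both genes. Of the 260 Cst3 UMIs, 78 were in 1 mural cell of library 1.

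Vascular cells against neurons gave calls for 5 of the 6 genes, where 50% of all genes were called. Apoe was higher by 5.38 (SE 0.27), Apod by 3.74 (SE 0.64) and Cst3 by 1.18 (SE 0.19), the weakest edgeR adjusted p being 3.20e-08. Ptgds was higher by 3.32 (SE 0.50) with an edgeR adjusted p of 3.37e-10, and without library 1 by 0.54 with an edgeR adjusted p of 0.786. Trf was higher by 3.64 (SE 0.98) with an edgeR adjusted p of 7.06e-04, and the sign turned without library 4, which holds all its vascular UMIs. Clu differed by -0.50 (SE 0.28), with an edgeR adjusted p of 0.133. At 500 UMIs, 24.8% ± 8.34 of vascular cells had an Apoe UMI and 49.0% ± 13.1 a Cst3 UMI (SD, n = 4).

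Rare cells outside the 5 classes held some of the highest levels, given from pooled UMIs with exact Poisson 95% intervals that cover counting error only. In 9 fibroblast-like cells from 3 libraries, Apod stood at 32581 CPM (29466 to 35936) and Apoe at 9693 CPM (8030 to 11599). Ptgds stood at 4236 CPM (3163 to 5554), while Clu had no UMI, which allows up to 300 CPM. Libraries differed widely, with Apod at 49628 CPM in 5 cells of library 1, 19667 CPM in 3 cells of library 3 and 16722 CPM in 1 cell of library 4. Without library 1 the pooled levels were 19284 CPM for Apod, 3625 CPM for Apoe and 1015 CPM for Ptgds, and without library 3 they were 16090 CPM for Apoe and 7169 CPM for Ptgds. In 9 microglia-like cells Cst3 stood at 36602 CPM (32815 to 40707) and Trf at 861 CPM (372 to 1697). Clu, Apod and Ptgds had no UMI in those cells, which allows up to 397 CPM each. Of their 30 Apoe UMIs, 29 were in the 1 cell of library 4, which had 2 Cst3 UMIs, and the other 8 cells held 1. No test was run on so few cells. The 9 microglia-like cells formed no cluster of their own and were taken out of the cluster led by Npy and Sst. It had 217 cells, of which 208 stayed as neurons. Summed microglia markers of those 208 stood at 60.2 ± 15.8 CPM (SD, n = 4), against means of 5.78 to 33.1 CPM in the other neuron clusters. In the vascular class, 4 of 8 fibroblast markers, Dcn, Lum, Col1a1 and Slc6a13, were at 0, and the others summed to 1226 CPM, from 744 to 2383 CPM by library. Leaving out vascular cells with a UMI of that list gave an Apod difference of 2.08 from astrocytes, with an edgeR adjusted p of 0.175.

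In neurons the 6 genes fell into a low and a higher set. Apoe stood at 29.2, 15.1, 17.7 and 31.6 CPM, Apod at 8.68 ± 1.51, Ptgds at 17.4 ± 4.71 and Trf at 4.06 ± 3.36 CPM (SD, n = 4). These levels were set against the tested class where each gene was highest, with the rare cells left aside. They came to 0.137% for Apoe, 0.115% for Apod, 0.156% for Ptgds and 0.0915% for Trf. Markers that define astrocytes and oligodendrocytes gave median ratios of 0.141% and 0.162%, and the 4 ratios lay within the range of those markers. Without library 3 the Trf ratio was 0.0580%. Clu stood at 369, 403, 309 and 394 CPM in neurons, 9.73% ± 1.498 of its astrocyte level, and Cst3 at 782, 854, 534 and 692 CPM, 3.74% ± 0.570 (SD, n = 4). Among cells with at least 800 genes the ratios were higher, at 23.3% for Clu, 9.09% for Cst3 and 0.216% for Apoe. Those cells were clustered anew and hold only a deeper part of the astrocytes, whose median was 812 UMIs against 3329 in neurons. None of 13 astrocyte, 10 oligodendrocyte, 10 endothelial and 9 mural markers had a ratio above that of Clu. Only Aldoc, at 5.21%, and Egfl7, at 4.01%, had one above that of Cst3.

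**Figure D5:**
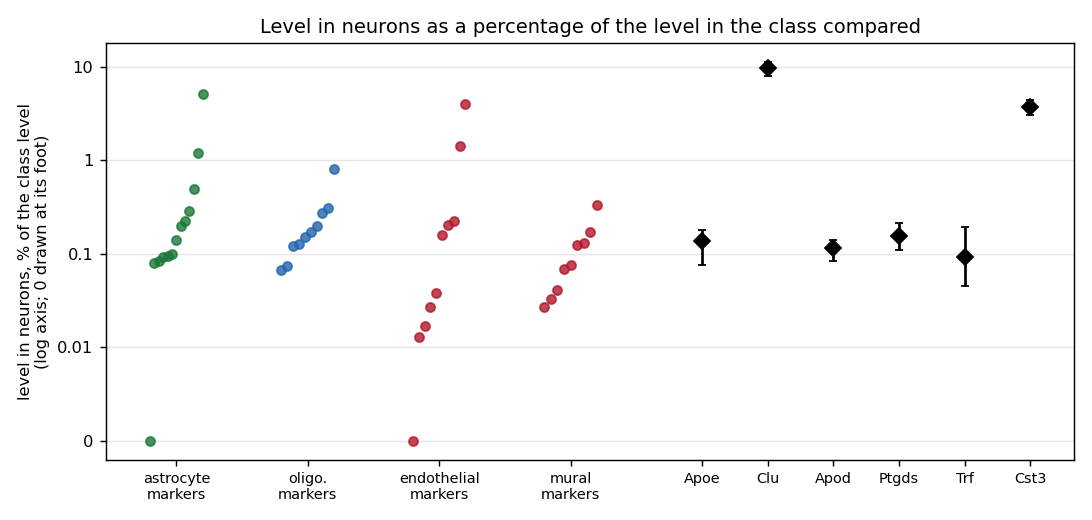
Level in neurons as a percentage of the level in the class compared, on a log axis, for each marker of 4 lists (points, with markers at 0 drawn at the foot) and for the 6 genes (diamonds with the range over 4 libraries). Apoe, Apod, Ptgds and Trf lie at 0.0915% to 0.156% among the markers, and Clu at 9.73% and Cst3 at 3.74% lie above nearly all of them.

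The proportions of the astrocyte genes also differed. Per Apoe UMI, astrocytes held 0.224 ± 0.0319 Clu and 1.14 ± 0.305 Cst3 UMIs, and 4069 barcodes with under 200 genes held 0.381 ± 0.172 and 2.22 ± 0.902 (SD, n = 4). Neurons held 17.3 ± 6.66 Clu and 33.8 ± 15.5 Cst3 UMIs per Apoe UMI (SD, n = 4), and no library of neurons overlapped either group. Neurons held 68.7% of all Clu UMIs of kept cells and 45.1% of those of Cst3, against 27.0% and 46.6% in astrocytes. The 2 classes differed in size, with 9513450 UMIs of all genes in neurons and 369484 in astrocytes, so these shares are not levels.

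Against neurons, astrocytes had more Apoe (9.79, SE 0.21), Cst3 (5.04, SE 0.17), Clu (3.67, SE 0.13) and Ptgds (2.31, SE 0.47), the weakest edgeR adjusted p being 2.14e-06. Trf was also called, at 2.14 (SE 0.95) with an edgeR adjusted p of 0.0370, on 5 UMIs in astrocytes, and this call was lost without any 1 of the 4 libraries, with edgeR adjusted p-values of 0.0646 to 0.0958. Apod differed by 1.21 (SE 0.82), with an edgeR adjusted p of 0.186. So 5 of 6 genes were called, where 67.2% of all genes were. Mature oligodendrocytes exceeded neurons in Trf (9.998, SE 0.21), Apod (9.51, SE 0.20), Ptgds (8.38, SE 0.20) and Apoe (5.58, SE 0.19) and fell below them in Clu (-4.30, SE 0.26) and Cst3 (-1.15, SE 0.15). All 6 were called, the weakest edgeR adjusted p being 2.41e-13, where 75.9% of all genes were. The median of all genes was -0.26 in the first of these comparisons and -0.20 in the second, and with no scaling beyond the total it was -0.57 and -0.68. The comparisons with neurons share the neuron sums.

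Clu and Cst3 varied among the 8 neuron clusters. Clu ran from 198 ± 19.0 CPM in a cluster led by Ppp1r1b and Arpp21, genes of striatal-type projection neurons, to 541 ± 123 CPM in one led by Prkcd and Ncdn (SD, n = 4). Cst3 in the Prkcd cluster stood at 3743, 2080, 1229 and 2046 CPM, above each other cluster in 4 of 4 libraries, and means of the other 7 ran from 468 to 822 CPM. Clu of that cluster was above each other cluster in 3 of 4 libraries, and in library 3 it stood at 359 CPM, with another cluster at 437 CPM. The summed astrocyte markers of the Prkcd cluster stood at 72.4 ± 58.4 CPM, against 177 to 418 CPM in the others (means, n = 4), the 177 CPM being in the Ppp1r1b cluster. Its summed microglia markers stood at 28.8 ± 28.4 CPM, against 5.78 to 60.2 CPM in the others. Its summed oligodendrocyte markers stood at 587 ± 260 CPM, against 188 to 756 CPM (means, n = 4). The cluster held 77 cells and was singled out after its values were seen.

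Apoe in neurons rested in part on 3 cells with 5 or more Apoe UMIs, which held 40.8% of the 238 Apoe UMIs in 2427 neurons. A cell of library 1 in the cluster led by Npy and Sst held 79 of them, with 2 UMIs of the neuron list and 9 of the microglia list among 1533. It lay under the share of 1% on the microglia list that set microglia-like cells apart. Without the 3 cells, neurons stood at 16.6 ± 7.04 CPM of Apoe, against 23.4 ± 8.21 CPM with them (SD, n = 4).

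The other genes of the members' pathways were counted from lists, and they could be among the genes clustered on. Of 17 lipoprotein receptors and lipid transfer genes, 13 were tested. Between astrocytes and mature oligodendrocytes, 6 were higher and 6 lower in astrocytes, where 27.1% and 26.1% of all genes were, with a median difference of 0.19 against 0.03 over all genes. Lrp1, a receptor for Apoe, stood at 278 ± 109 CPM in astrocytes and at 4.86 ± 4.24 and 0 CPM in the 2 oligodendrocyte forms (SD, n = 4). Abca1, the pump that loads lipid onto Apoe, stood at 322 ± 124 CPM in astrocytes, 31.7 ± 11.5 and 60.4 ± 16.03 CPM in the forms (SD, n = 4), a difference of 2.81 (SE 0.27) with an edgeR adjusted p of 1.71e-23. Abcg1, of the same list, went the other way, at 16.7 ± 7.19 CPM in astrocytes and 198 ± 45.5 and 303 ± 71.1 CPM in the forms (SD, n = 4). Its difference was -4.00 (SE 0.40), with an edgeR adjusted p of 4.51e-22. Vldlr, another receptor, was lower in astrocytes by -3.98 (SE 0.41), with an edgeR adjusted p of 2.05e-21. None of the 13 was called between the forms, where 6.07% of all genes were. Pltp, a lipid transfer protein, was highest in vascular cells, at 1222 ± 291 CPM against 41.7 ± 17.7 CPM in astrocytes (SD, n = 4).

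Of 11 iron genes 3 were tested, and 1 was called between the forms. Fth1, the ferritin heavy chain that stores iron, stood at 14472 ± 1014 CPM in the Opalin and Il33 form and 22456 ± 2660 CPM in the Klk6 and Anln form (SD, n = 4). The difference was -0.55 (SE 0.15) with an edgeR adjusted p of 0.00796, the direction of Trf. Tfrc, the receptor for transferrin, was highest in vascular cells, at 329 ± 159 CPM, against 36.8 ± 13.9 and 77.6 ± 49.1 CPM in the forms (SD, n = 4), and it exceeded mature oligodendrocytes by 2.39 (SE 0.34) with an edgeR adjusted p of 1.11e-11. Of 12 cystatin and cathepsin genes 7 were tested. The cysteine proteases Ctsl and Lgmn were higher in the Opalin and Il33 form, by 1.25 (SE 0.26) and 0.73 (SE 0.23), with edgeR adjusted p-values of 4.12e-05 and 0.0263, and the other 5 were not called between the forms, where 6.07% of all genes were. Of 11 prostaglandin genes, 10 of them in the count tables, Ptges3 alone was tested, and it was not called between the forms. Of 13 other secreted carriers 9 were in the count tables, and none of these passed the filter on low counts.

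Over the 20 sums of class and library, the genes most like each member were sought among 9897 genes by Pearson's r of log2(CPM + 1), a description in which sums of a library share their depth. Cd63 (r = 0.945), Mt1 and Ppap2b came closest to Apoe, Atp1b2 (r = 0.958), Trim9 and Camk2n1 to Clu, and Macf1 (r = 0.946), Sfrs18 and Btbd17 to Cst3. Taldo1 (r = 0.963), Gsn and Slc12a2 came closest to Apod, Pip4k2a (r = 0.971), Fa2h and Ppp2r3a to Trf, and Cldn11 (r = 0.936), Opalin and Mobp to Ptgds.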

How the data were processed

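The 4 libraries hold single-cell transcript counts of BNST tissue punches. The authors deposited raw UMI counts per gene and cell barcode, which are whole numbers whose sum differs from barcode to barcode. The submitters' processing notes name bcl2fastq 2.18.0.12, STAR 2.4.2a, Picard 2.2.4 and the builds mm10 and GRCm38, and per the labels' protocols the libraries were tagged at the 3′ end. Counting strand and the choice of barcodes are not given in the sources used here.

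Cells with at least 400 genes and at most 10% mitochondrial UMIs were kept, and Scrublet (expected rate 0.05, per library) removed 58 of 4239. Cells were log-normalised and clustered in scanpy 1.11.5 on 2000 variable genes, without the 6 members, with 30 principal components and Leiden resolution 1. Of 17 clusters, each took the list with the highest mean range-scaled log2(CPM + 10) of its markers, a rule settled after clusters were seen, and 1 cluster, of 129 cells, stayed unnamed. Microglia-like cells had at least 5 UMIs and 1% of UMIs on the microglia list. Sums per class and library went into edgeR 4.0.16 (TMM, filterByExpr, glmQLFit and glmQLFTest) with library as a block, tested on simulated data, and DESeq2 was an alternative. Shares at 500 UMIs are exact hypergeometric expectations, and the pairs and counts within cells come from 1 seeded thinning. SE is the log2 difference divided by the square root of F.

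Libraries are pools of separate mice per the labels, and counts of any pair of libraries differed by 3.64 to 17.7 times the sampling variance. Named genes were the 6 members, for each pathway list up to 4 genes with the smallest adjusted p per comparison (values of some are given in other comparisons too), the 3 genes most like each member and identity markers. Members and lists were chosen with earlier results of these data known. Alternatives covered scaling, test, filters, cell limits, doublets, clustering and class rules, and each library left out. Of the 20136 gene names, 18830 were found in GENCODE vM21. RefSeq promoters for Clu and Trf were not used here. Precision is limited by UMIs per sum, 17480 to 60119 in vascular cells and 1467790 to 4001080 in neurons.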

Additional observations from a re-analysis of the deposited data

Results flagged for a closer look

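Each of 30 levels of the 6 genes in the 5 classes was searched for a library far from the other 3, and 4 were found. Chance alone marks about 1 in 20 where values are normally distributed. That rate does not hold for vascular levels, which rest on few UMIs, so no excess over chance is read from the count. Ptgds in the Opalin and Il33 form was highest in library 1, at 15609.9 CPM, with the other 3 at 9642 to 10590.1 CPM. In the vascular class, Ptgds was highest in library 1, at 399 CPM, and 21 of its 24 UMIs there came from 1 cell with 102 UMIs of oligodendrocyte markers. Vascular Trf was highest in library 4, at 304 CPM, on 6 UMIs with the other libraries at 0. Vascular Apod was also highest in library 4, at 203 CPM, on 4 UMIs.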

How the results depend on the processing

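All 6 member differences between astrocytes and mature oligodendrocytes, and all 6 between mature oligodendrocytes and neurons, kept their direction and call in each of 126 values under the alternatives tried for each comparison. Between the forms, 111 of 119 values did. There Trf missed the threshold in DESeq2 (-0.99), Clu passed it with adjustment over all 7 comparisons (2.21) and with doublets kept (2.17), and Cst3, never called, turned sign without the low-count filter (0.064), with doublets kept (0.16), with classes from marker UMIs (0.25), without the smaller Opalin cluster (0.021) and over the libraries left out in turn (-0.22 to 0.10). Of vascular cells against astrocytes, Apod turned with doublets kept (-0.23). Ptgds turned there with doublets kept (-0.49), members clustered on (-0.91), Leiden resolution 1.5 (-1.16), classes from marker UMIs (-0.79), at least 1% own-list UMIs (-1.02) and no fibroblast-list UMI (-1.11), and ran from -1.83 to 1.54 over libraries left out. Trf turned with doublets kept (-0.72) and no fibroblast-list UMI (-6.08), and ran from -6.16 to 2.03. Apoe in vascular cells against mature oligodendrocytes turned with no scaling (0.41), only those classes fitted (0.19), a mitochondrial limit of 5% (1.04), marker UMIs (1.30) and own-list UMIs (0.031), and ran from -0.48 to 0.11. Trf against neurons turned with no fibroblast-list UMI (-4.00) and ran from -4.02 to 4.403. The causes were not tested.

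Counts of genes called moved by over 1.5 times as follows. Between the forms 268 became 167 with no replicate block, 517 with joint adjustment, 166 at a mitochondrial limit of 5%, 534 with doublets kept and 108 with marker UMIs. Library is a physical pairing, since each library holds all 5 classes. Without the replicate block 1 member call was lost, Trf in astrocytes against neurons (2.17). Without the low-count filter more genes were tested, and calls rose to 3764 (astrocytes against mature oligodendrocytes), 3085 (vascular cells against mature oligodendrocytes), 6013, 7826 and 4616 (astrocytes, oligodendrocytes and vascular cells against neurons). At the 5% limit, with fewer cells, they were 1476, 1191, 1921, 2179 and 1135 in that order, and 879 in vascular cells against astrocytes. Fitting only the classes compared gave 734 for vascular cells against astrocytes and 5175 for astrocytes against neurons, marker UMIs gave 1264 for vascular cells against mature oligodendrocytes, and a minimum of 800 genes gave 1507 for astrocytes against neurons.

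Shares were higher at 1000 UMIs and without thinning, at 95.5% and 90.5% (Clu, astrocytes), 99.7% and 100% (Apod, Klk6 form), 94.5% and 94.8% (Ptgds, Opalin form) and 96.8% and 99.2% (Trf, Klk6 form). The set of cells also changed, as only cells of at least 1000 UMIs enter the first of each pair. They were 116 astrocytes with 289 left out, 476 Opalin-form cells with 183 left out and 213 Klk6-form cells with 37 left out. With a minimum of 800 genes, the neuron ratio was 0.216% for Apoe, 23.3% for Clu and 9.09% for Cst3. That minimum left no vascular class, members clustered on left no Klk6 form, and a 5% limit left library 3 too few vascular cells, so these gave no values there. No scaling beyond the total, the unnamed cluster counted as neurons, leaving out cells with a fibroblast-list UMI, leaving out the smaller Opalin cluster and leaving out libraries from the rare cells were chosen after seeing the data. Levels of 1 to 6 UMIs, as of Trf and Apod in astrocytes, cannot be ordered at this depth.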
